A study of Mus musculus with 6 samples.

Results

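Esophagus organoids and stomach organoids differed in their epithelial ETS transcription factors. The family is described here through 10 genes chosen by name: the epithelium-specific factors Ehf, Elf3, Elf5 and Spdef, the broadly expressed Elf1, the ERK-regulated Ets1 and Ets2, the PEA3 factors Etv4 and Etv5, and the repressor Etv6. All 10 were on the array, with 15 of its 55681 distinct non-control probes, and they stood for 10 of 34298 gene names. Elf5, Ets1, Ehf and Etv4 were higher in esophagus, Spdef was higher in stomach, and Elf1, Elf3, Ets2, Etv5 and Etv6 did not pass the test.

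ETS factors share a winged helix-turn-helix DNA-binding domain that recognizes sites built around the core GGAA. The epithelium-specific members are used by glandular and stratified epithelia during differentiation, whereas Ets1, Ets2 and the PEA3 factors act at the end of the receptor tyrosine kinase, Ras and ERK pathway, where phosphorylation or induced transcription raises their activity. The esophagus is lined by a stratified squamous epithelium and the stomach by a columnar, mucus-secreting one, and the study asked which regulators accompany each fate.

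The data were 6 single-color microarrays of total RNA from 3D organoids at passage 0, 3 from esophagus and 3 from stomach. Both tissues came from mouse 1, mouse 2 and mouse 4, which were harvested on day 8 except the stomach organoids of mouse 4, on day 7. Every array was labelled as a control with no allele or agent named. The methods list wild-type C57BL/6 females, and give an adult age range for mice in general that is not tied to these arrays. Stomach organoids were grown from corpus glands with R-spondin1, WNT3A-conditioned medium and gastrin. Esophagus organoids were grown from dissociated cells with forskolin and without those 3 additions. EGF, noggin, FGF-10, nicotinamide, N-acetyl-L-cysteine, a ROCK inhibitor and a TGF-beta receptor kinase inhibitor were in both media, so tissue and medium cannot be told apart. In these bulk samples, fewer cells of a type and less RNA per cell cannot be told apart either.

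Between 45.5% and 51.1% of the non-control spots were well above background on each array, and no spot was saturated. Markers of each tissue were mostly higher in the organoids of that label. In limma 5 of 6 basal markers and 9 of 12 suprabasal markers were higher in esophagus, and 1 basal marker, Itga6, was higher in stomach through 1 of its probes. All 12 columnar markers were higher in stomach. Of 8 fibroblast and 6 endothelial markers none passed in limma, at an adjusted or an unadjusted p under 0.05 with a 1.5-fold change, and of 10 immune markers Itgam was higher in stomach, with Cd68 higher in esophagus only at the unadjusted threshold. Of these lists, 0 of 8 fibroblast, 2 of 6 endothelial (Pecam1 and Kdr) and 5 of 10 immune genes (Cd3e, Cd4, Csf1r, Cd68 and Itgam) were well above background on every array of at least 1 tissue. The defining genes Ptprc of leukocytes, Cdh5 of endothelium and Pdgfra and Pdgfrb of fibroblasts were not well above background on any array. The esophagus array of mouse 4 was the only array on its slide, and the other 5 shared the first slide.

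Promoter sequences show where ETS-type cores lie next to the starts of members. RefSeq promoter windows (GRCm38.p6, the 250 bases before each annotated start, printed in the direction of transcription) matched 7 of the 10 members with 10 windows. The windows of Elf5, which has 2 annotated starts (chr2:103411848-103412097 and chr2:103423818-103424067, plus strand), of Spdef (chr17:27728952-27729201, minus strand) and of Elf3 (chr1:135258473-135258722, minus strand) are shown because these genes had the largest fitted differences among members with a window. Capitals mark GGAA or its reverse complement TTCC.
Elf5 upstream start: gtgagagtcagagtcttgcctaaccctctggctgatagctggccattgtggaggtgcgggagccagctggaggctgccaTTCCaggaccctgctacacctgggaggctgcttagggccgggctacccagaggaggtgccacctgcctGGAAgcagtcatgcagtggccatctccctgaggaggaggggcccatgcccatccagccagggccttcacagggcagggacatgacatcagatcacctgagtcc
Elf5 downstream start: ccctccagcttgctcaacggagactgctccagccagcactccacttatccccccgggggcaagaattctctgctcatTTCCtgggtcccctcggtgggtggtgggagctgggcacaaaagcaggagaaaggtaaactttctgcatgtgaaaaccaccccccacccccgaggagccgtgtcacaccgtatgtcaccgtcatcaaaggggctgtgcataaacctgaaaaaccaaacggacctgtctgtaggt
Spdef: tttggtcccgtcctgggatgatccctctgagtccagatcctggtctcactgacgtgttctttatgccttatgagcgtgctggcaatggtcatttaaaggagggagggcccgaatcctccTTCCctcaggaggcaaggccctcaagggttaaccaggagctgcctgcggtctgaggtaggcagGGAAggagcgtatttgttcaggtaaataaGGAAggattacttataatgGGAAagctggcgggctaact
Elf3: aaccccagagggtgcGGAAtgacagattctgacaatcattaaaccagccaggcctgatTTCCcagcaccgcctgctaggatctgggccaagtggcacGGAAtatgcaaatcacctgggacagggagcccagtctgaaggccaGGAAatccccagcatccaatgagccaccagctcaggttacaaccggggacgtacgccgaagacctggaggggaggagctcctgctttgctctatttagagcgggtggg

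The core occurred 2 times and 1 time at the Elf5 starts, 4 times at Spdef and 4 times at Elf3. Among all 32851 mouse promoter windows of this length, 93.4% held at least 1 GGAA or TTCC, with a median of 3 matches and quartiles of 2 and 4. The longer ETS motif CCGGAAG, searched with its reverse complement CTTCCGG and itself containing the core, was in none of the 10 member windows and in 6.91% of all windows. A letter match is a description of the sequence only.

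Differences are given on the log2 scale of the deposited, quantile-normalized intensities, as esophagus minus stomach. A probe was called where limma's Benjamini-Hochberg adjusted p over all 55681 probes was under 0.05, and a gene where at least 1 of its probes was called. Each p rests on the spread between 3 mice per tissue, which limma moderates toward the spread of all probes, and the main fit did not use the pairing by mouse. Of the 10 genes, 4 were higher in esophagus, through 6 probes, against a background of 7.88% of all gene names. In the other direction 1 gene was higher in stomach, through 1 probe, against 8.33% of gene names, and 16.2% of gene names were called in either direction. By probes, 5.94% of all those tested were higher in esophagus and 6.22% in stomach, and these shares were 12.2% and 12.9% among probes bright on every array of at least 1 tissue. The 3 arrays of one tissue lay wholly above the 3 of the other for 10 of the 15 member probes, 8 with esophagus above and 2 with stomach above, against 28.6% of all probes. The median difference over the members, taking the brightest probe of each gene, was 0.58, whereas it was 0.02 over all probes and 0.06 over probes well above background in a tissue. The count of genes higher in esophagus fell to 2 without the stomach array of mouse 1 or the esophagus array of mouse 2. The count higher in stomach rose to 2 without the esophagus array of mouse 1. With the mouse as a replicate block, 3 genes were higher in esophagus, through 4 probes, and 1 gene was higher in stomach. At the 0.05 and 1.5-fold thresholds of the methods, which do not say whether p was adjusted, an unadjusted p put 4 genes higher in esophagus, against 12.2% of gene names, and 2 higher in stomach, against 11.5%.

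**Figure D1:**
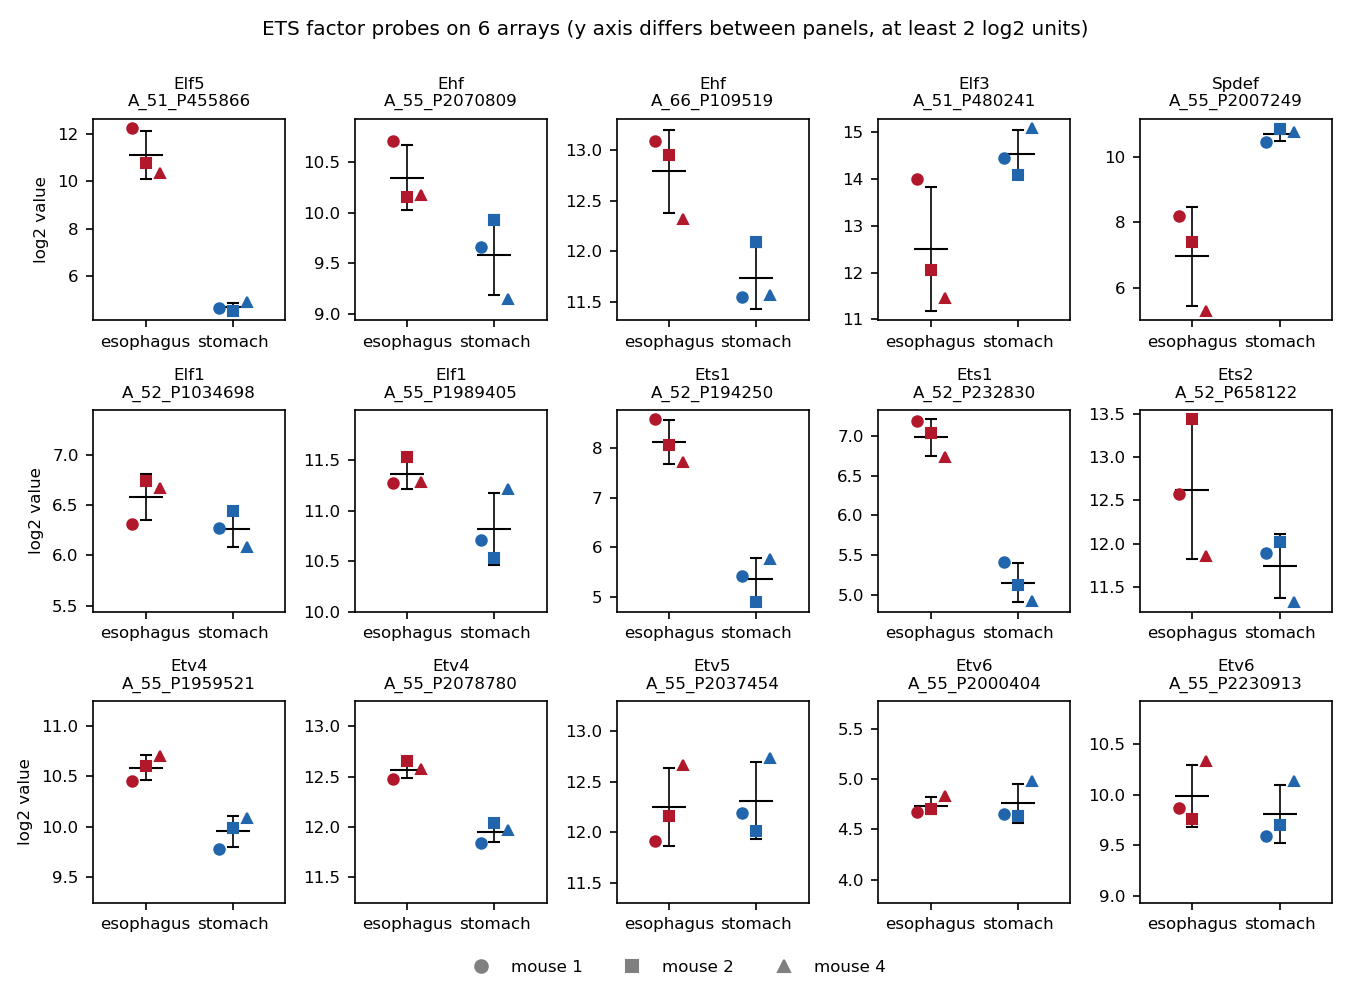
Log2 value of each of the 15 ETS factor probes (y axis, its own range in every panel) on the esophagus arrays (red) and stomach arrays (blue), with the mouse given by the symbol and the mean ± SD (n = 3) as black bars. The Elf5 panel has the widest gap, with esophagus values of 10.34 to 12.25 and stomach values of 4.56 to 4.92.

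Elf5, an epithelium-specific factor known for its part in trophoblast and mammary alveolar cells, was the member with the greatest difference. Its probe (A_51_P455866, NM_010125, mm9 chr2:103290958-103291017, plus strand) read 12.25, 10.77 and 10.34 on the esophagus arrays of mice 1, 2 and 4, and 4.69, 4.56 and 4.92 on the corresponding stomach arrays. Every esophagus array was far above every stomach array, and the probe was not well above background on any of the 3 stomach arrays. The means were 11.12 ± 1.003 and 4.72 ± 0.18 (SD, n = 3 each). Because the stomach side was below background, values under the lowest signal well above background on an array (the background floor) were raised to it. Against this floor the esophagus mean was 77.1-fold higher, a point estimate and not a lower limit. The fitted log2 difference was 6.40 (SE 0.44, 95% confidence interval 5.37 to 7.43, limma adjusted p = 6.10e-05). The call held under all 16 alternative settings, with fitted differences from 5.16 (normexp offset of 50) to 9.53 (software background-subtracted values, 75th percentile scaling).

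Ehf lies next to Elf5 on chromosome 2 and encodes another epithelium-specific factor, found in many glandular and stratified epithelia. Its brighter probe (A_66_P109519, NM_007914, mm9 chr2:103106827-103106886) read 13.09, 12.96 and 12.32 in esophagus and 11.54, 12.09 and 11.56 in stomach. All 3 esophagus values were above all 3 stomach values, and every array was well above background. Means of 12.79 ± 0.41 and 11.73 ± 0.31 gave a log2 difference of 1.06 (SE 0.25, limma adjusted p = 0.0316). The second probe, 7216 bases away, read 10.72, 10.15 and 10.18 in esophagus and 9.66, 9.93 and 9.15 in stomach. Its arrays were ordered by tissue in the same way, with a difference of 0.77 (95% confidence interval 0.19 to 1.35) that missed the threshold (limma adjusted p = 0.0960). The call on the brighter probe was lost with a larger normexp offset (limma adjusted p = 0.0609) and on quantile-normalized software background-subtracted values (0.0874). It was also lost without the stomach array of mouse 1 (0.132) or mouse 4 (0.0770), or the esophagus array of mouse 1 (0.0792) or mouse 2 (0.104).

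Of these neighbours on chromosome 2, Ehf was thus well above background in both tissues and Elf5 in esophagus alone. The difference between their changes was not tested.

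Spdef, a factor of mucus-producing and other secretory cells, had the opposite direction. Its probe (A_55_P2007249, NM_013891, mm9 chr17:27851401-27851460) read 8.21, 7.41 and 5.30 in esophagus and 10.46, 10.84 and 10.74 in stomach. The stomach arrays lay close together above all esophagus arrays, and the esophagus arrays were widely spread, with 2 of the 3 well above background. Means of 6.97 ± 1.51 and 10.68 ± 0.20 gave a log2 difference of -3.71 (SE 0.65, limma adjusted p = 0.00798), a 13.1-fold lower level in esophagus. The difference passed with any single array left out, at -4.33 to -2.87, and did not pass on quantile-normalized software background-subtracted values (-4.42, limma adjusted p = 0.113).

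Elf3, an epithelium-specific factor expressed in differentiating squamous cells as well as in columnar epithelium, was bright in both tissues. Its probe (A_51_P480241, NM_007921, mm9 chr1:137150328-137150387) read 14.00, 12.06 and 11.45 in esophagus and 14.43, 14.07 and 15.08 in stomach. Stomach arrays were above esophagus arrays without overlap, but the esophagus array of mouse 1 came close to the lowest stomach array. Means were 12.50 ± 1.33 and 14.53 ± 0.51, and the difference of -2.03 (SE 0.61, 95% confidence interval -3.44 to -0.61) did not pass the test (limma adjusted p = 0.0758). Without the esophagus array of mouse 1 it was -2.77 and passed (limma adjusted p = 0.00193), and it also passed when only probes above background were tested (0.0432).

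**Figure D2:**
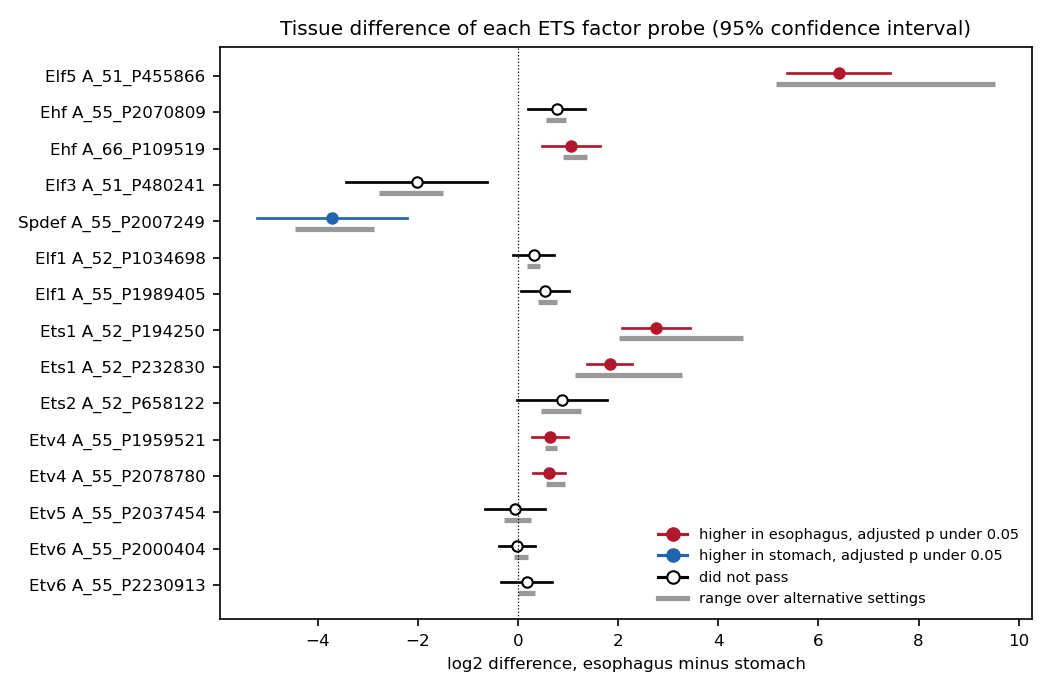
Log2 difference, esophagus minus stomach (x axis), of each ETS factor probe with its 95% confidence interval, colored where limma's adjusted p was under 0.05, and a grey bar beneath it for the range over the alternative settings. Elf5 (6.40) and both Ets1 probes (2.76 and 1.83) lie to the right of 0 and Spdef (-3.71) to the left, and the intervals of Ets2, Etv5, the dimmer Elf1 probe and both Etv6 probes include 0.

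The largest SDs among the esophagus arrays were those of Spdef, Elf3 and Elf5. Elf3, Elf5 and Spdef all had their highest value on the array of mouse 1 and their lowest on that of mouse 4, over ranges that the values above give. Ehf by its brighter probe and Ets1 by both probes had this order as well, while Ets2 was highest in mouse 2. Among the 13 member probes above background on all esophagus arrays, mouse 1 was highest in 6 and mouse 4 lowest in 6, so the order was not shared by all members. The esophagus array of mouse 4 was also the only one on its slide and scan, and the part of the slide in this order was not tested.

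Marker lists on the same arrays are given beside this spread. The 12 suprabasal markers, which are genes of differentiating squamous layers, had a mean log2 value of 12.60 and 12.86 in mice 1 and 2 and 11.07 in mouse 4. The protease inhibitor gene Spink5 read 14.61, 13.65 and 12.19, and the cornified envelope gene Lor read 14.44, 16.94 and 10.38. Single genes of this list therefore differed in order: Spink5, Tgm1, Sprr3 and Grhl1 were highest in mouse 1 and Lor, Krt4, Krt13 and Grhl3 in mouse 2, and all 8 were lowest in mouse 4. Tgm3 on its called probe and Klf4 had the order of Lor, Flg was highest in mouse 2 and near background, and Ivl went against the list, with its lowest value in mouse 2 on both probes (6.90 on the brighter). The mean of the 6 basal markers was 15.44, 15.52 and 15.56, although Krt15 alone read 15.38, 14.44 and 16.12. Cd68, a lysosomal gene of macrophages and other cells, read 14.77, 12.94 and 11.80 by its brighter probe and carried the immune list, whose summed intensity was 31180, 10150 and 5833. Cd68 and the immune sum thus had the order of Elf3, Elf5 and Spdef, as did the first 4 suprabasal genes named. The 12 columnar markers summed to 7753, 2831 and 4855 in the esophagus arrays, against 730200 to 773300 in stomach, and 3 to 5 of the 12 were well above background in an esophagus array. The columnar sum was lowest in mouse 2. The part of these markers in the spread of the ETS factors was not tested.

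The summed columnar markers can be set beside the ETS values of the same arrays. On the esophagus arrays of mice 1, 2 and 4 the columnar list stood at 1.03%, 0.376% and 0.644% of its stomach mean on the linear scale. Elf3 stood at 66.3%, 17.3% and 11.3% of its own stomach mean, and Spdef at 17.9%, 10.3% and 2.37%. The share of Elf3 was above that of the list on all 3 arrays. Spdef was not well above background on the array of mouse 4, so its share there has no order against the list. The columnar sum on the esophagus arrays was carried mainly by the keratin genes Krt18 and Krt19.

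**Figure D3:**
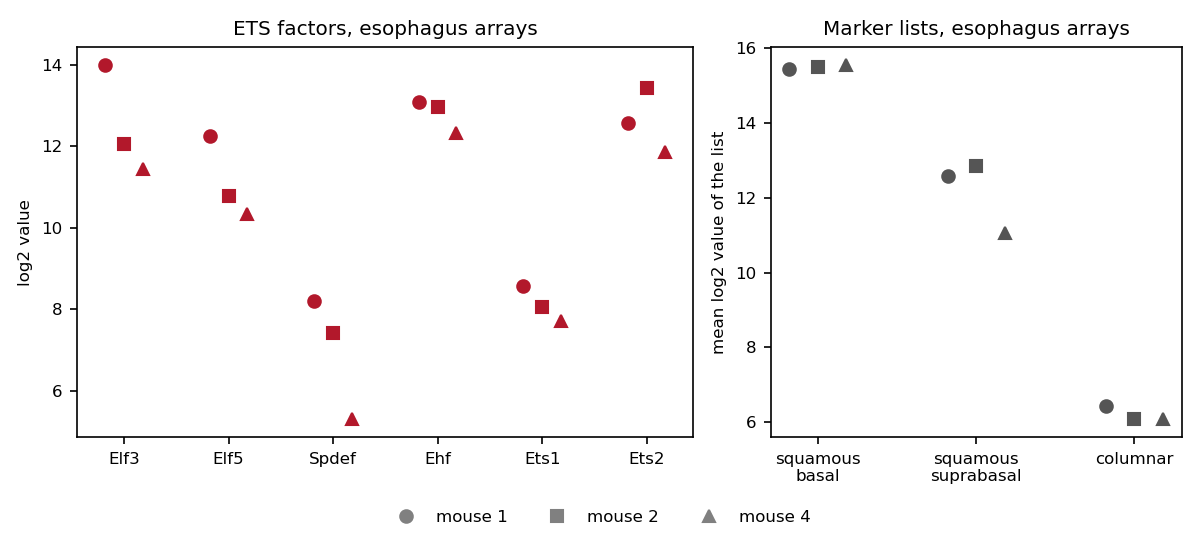
Log2 values of 6 ETS factors on the 3 esophagus arrays (left, y axis in log2 units, symbols for the mouse) and mean log2 value of the squamous basal, squamous suprabasal and columnar marker lists on the same arrays (right). Elf3, Elf5 and Spdef run from mouse 1 down to mouse 4, the suprabasal list is lowest in mouse 4 (11.07), and the basal list stays between 15.44 and 15.56.

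Ets1, the founding member of the family and a target of ERK phosphorylation, was higher in esophagus by both of its probes. The first (A_52_P194250, NM_011808, mm9 chr9:32564860-32564919) read 8.58, 8.05 and 7.71 in esophagus and 5.42, 4.89 and 5.76 in stomach. The second, 3034 bases away, read 7.18, 7.03 and 6.73 in esophagus and 5.42, 5.12 and 4.92 in stomach. Esophagus arrays were above stomach arrays throughout, and in stomach the probes were well above background on only 2 and 1 of the 3 arrays. The log2 differences were 2.76 (SE 0.29, limma adjusted p = 0.000591) and 1.83 (SE 0.19, limma adjusted p = 0.000594). Both calls held under every alternative setting in which the probe was fitted on its own, over ranges of 2.01 to 4.49 and 1.14 to 3.28. Fli1, the neighbouring ETS gene on chromosome 9, was not well above background on any of the 6 arrays.

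Ets2, the close relative of Ets1, read 12.57, 13.44 and 11.86 in esophagus and 11.90, 12.02 and 11.33 in stomach (probe A_52_P658122, NM_011809). The groups overlapped, because the esophagus array of mouse 4 was below the stomach arrays of mice 1 and 2. The log2 difference of 0.87 (95% confidence interval -0.03 to 1.77) did not pass (limma adjusted p = 0.223). Without the esophagus array of mouse 4, which lay alone on its slide, the difference was 1.25 (limma adjusted p = 0.0498). Erg, the ETS gene beside Ets2 on chromosome 16, was below background on all 6 arrays.

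Etv4, a PEA3 factor whose transcription follows FGF and ERK signaling, differed by a small and even amount. Its probes lie 265 bases apart. The brighter one (A_55_P2078780) read 12.48, 12.66 and 12.57 in esophagus and 11.84, 12.04 and 11.97 in stomach. The other (A_55_P1959521) read 10.45, 10.60 and 10.70 in esophagus and 9.78, 9.99 and 10.08 in stomach. The 2 groups stood apart on both probes, and spread within a tissue was small. The log2 differences were 0.62 (SE 0.14, limma adjusted p = 0.0274) and 0.63 (SE 0.15, limma adjusted p = 0.0355). With the mouse as a replicate block the same differences gave limma adjusted p-values of 0.0606 and 0.0574, so that the call was lost. Both were also lost with variance trend and robust estimation, with 75th percentile scaling, and without the stomach array of mouse 1 (adjusted p = 0.122 and 0.147) or mouse 2 (0.0696 and 0.106), or the esophagus array of mouse 2 (0.0923 and 0.101) or mouse 4 (0.0619 and 0.0917). The brighter probe was lost without the stomach array of mouse 4 as well (0.0512).

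Etv5, the other PEA3 member on this list, read 11.92, 12.16 and 12.67 in esophagus and 12.19, 12.01 and 12.74 in stomach (probe A_55_P2037454). The arrays of the tissues were interleaved, and in each tissue mouse 4 gave the highest value. The log2 difference was -0.07 (95% confidence interval -0.67 to 0.54, limma adjusted p = 0.920), and its sign turned under 75th percentile scaling (0.27). The test of Etv4 against Etv5 was not run.

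Elf1, a widely expressed factor, read 11.27, 11.53 and 11.29 in esophagus and 10.71, 10.53 and 11.21 in stomach by its brighter probe. Esophagus was above stomach without overlap, by a margin set by the stomach array of mouse 4. The log2 difference of 0.55 (SE 0.21, limma adjusted p = 0.151) did not pass, and without that array it was 0.74 and passed (limma adjusted p = 0.0340). The dimmer Elf1 probe, 8627 bases away, overlapped between the tissues with a difference of 0.31 (limma adjusted p = 0.357).

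Etv6, a transcriptional repressor that acts as an oligomer, read 9.86, 9.76 and 10.34 in esophagus and 9.59, 9.70 and 10.14 in stomach by its brighter probe. The groups overlapped and the log2 difference was 0.18 (95% confidence interval -0.33 to 0.68, limma adjusted p = 0.714). The other Etv6 probe, 19052 bases away, was below background on all 6 arrays and gives no fold.

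The rest of the ETS family on the array was 16 genes with 28 probes. Of these genes 3 were higher in esophagus, against 7.88% of all gene names, and 0 in stomach, against 8.33%, by limma's adjusted p. By an unadjusted p under 0.05 with a 1.5-fold change they were 4, against 12.2% of gene names, and 0, against 11.5%. None was higher in stomach under any of the 16 alternative settings. The median difference of their brightest probes was 0.27, beside 0.02 over all probes, and 11 of the 28 probes did not overlap between tissues, 10 with esophagus above and 1 with stomach above, against 28.6% of all probes. In 9 of the 16 genes a probe was well above background on every array of at least 1 tissue. The hematopoietic and endothelial ETS genes Spi1, Spic, Fli1 and Erg were below background on every array, as were Etv2 and Fev. Spib, another hematopoietic ETS gene, was well above background on 1 of 3 esophagus arrays and on 0 of the stomach arrays. It read 5.17, 6.47 and 5.25 in esophagus and did not pass (limma adjusted p = 0.461).

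Etv1, the remaining PEA3 factor, had the largest change among these genes. It read 9.27, 9.32 and 9.88 in esophagus and 8.24, 8.23 and 7.32 in stomach. All esophagus values were above all stomach values, with a log2 difference of 1.56 (SE 0.29, limma adjusted p = 0.0113). The second Etv1 probe was below background on all 6 arrays, and with the probes averaged the difference was 0.91. Erf, an ETS repressor that ERK inactivates, was higher by 1.20 (SE 0.23, limma adjusted p = 0.0121) on its bright probe, and its second probe was below background. Without the stomach array of mouse 2 the Erf call was lost (limma adjusted p = 0.0560), as it was on quantile-normalized software background-subtracted values (0.0521) and with its probes averaged, where the difference was 0.65 (0.0756). Gabpa, the DNA-binding subunit of a widely used activator of housekeeping and mitochondrial genes, was higher by 1.12 on its dimmer probe (SE 0.20, limma adjusted p = 0.00850). On its brighter probe it was higher by 0.68, which did not pass (0.0664).

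Genes known to respond to ERK signaling were described through a list of 16. In limma 4 were higher in esophagus, against 7.88% of all gene names, 1 was higher in stomach, against 8.33%, and 11 did not pass. Their median difference was 0.76. Dusp6, the ERK phosphatase, read 13.49, 13.72 and 13.16 in esophagus and 11.89, 11.86 and 11.29 in stomach, a difference of 1.78 (SE 0.22, limma adjusted p = 0.00157). Fosl1, an AP-1 subunit, differed by 2.89 (SE 0.64, limma adjusted p = 0.0237), the receptor Epha4 by 2.15 (SE 0.47, 0.0234) and the feedback inhibitor Spry2 by 0.92 (SE 0.23, 0.0409). Il17rd, a membrane antagonist of FGF signaling, was lower in esophagus, at 7.44, 7.28 and 7.13 against a stomach mean of 9.37 ± 0.32 (SD, n = 3), a difference of -2.09 (SE 0.20, limma adjusted p = 0.000332). The list thus held members in both directions. Its count higher in esophagus ranged from 1 to 7 when single arrays were left out: it was 2 without the stomach array of mouse 1, 1 without the stomach array or the esophagus array of mouse 2, and 7 without the esophagus array of mouse 4. Without the stomach array of mouse 2 or the esophagus array of mouse 2, Fosl1 (limma adjusted p = 0.106 and 0.0707), Epha4 (0.105 and 0.0588) and Spry2 (0.120 and 0.123) lost their calls. Without the stomach array of mouse 1 Fosl1 (0.0994) and Epha4 (0.105) did, and Spry2 did without the stomach array of mouse 4 (0.0677) or the esophagus array of mouse 1 (0.0977). With the mouse as a replicate block the call on Epha4 was lost as well (limma adjusted p = 0.0512).

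Receptors, kinases and partners of ETS factors formed a list of 15 genes with 34 probes. In limma 4 genes were higher in esophagus, against 7.88% of all gene names, 2 were higher in stomach, against 8.33%, and 9 did not pass, with a median of 0.24. The FGF receptors differed in direction. Fgfr1 read 8.44, 9.63 and 9.10 in esophagus and 5.24, 5.56 and 5.31 in stomach on the probe with the largest change, a difference of 3.69 (SE 0.29, limma adjusted p = 0.000116), with 1 of 3 stomach arrays well above background. Another Fgfr1 probe, bright in both tissues, had a difference of -0.37 that did not pass (0.575). A remaining one, below background in stomach, was 2.93-fold higher in esophagus (0.00559), so 2 of 3 probes were higher in esophagus. The Fgfr4 probe with the largest change read 4.997, 5.067 and 5.030 in esophagus, where it was below background, and 10.09, 10.07 and 11.35 in stomach. Against the background floor it was 43.8-fold higher in stomach (limma adjusted p = 2.80e-05). The second Fgfr4 probe, well above background on 1 of 3 esophagus arrays, differed by -1.03 and did not pass (0.147). Fgfr2 differed by 1.45 (SE 0.24, limma adjusted p = 0.00613), and its second probe passed as well. The receptor Egfr differed by 1.11 (limma adjusted p = 0.00770) on its brightest probe, by 1.46 (SE 0.37, 0.0414) on the probe with the largest change and by 1.16 on another, which did not pass (0.0615). The call on the probe with the largest change was lost without the stomach array of mouse 1 (0.115), mouse 2 (0.161) or mouse 4 (0.0698) or the esophagus array of mouse 2 (0.0837). Cbfb, the partner of the RUNX factors that bind DNA beside Ets1, differed by 0.96 (SE 0.15, limma adjusted p = 0.00417). The ERK1 kinase gene Mapk3 differed by -1.41 (SE 0.36, limma adjusted p = 0.0444) on 1 probe and did not pass on its brighter one (-1.33, 0.130). The call on the dimmer Mapk3 probe was lost without the stomach array of mouse 1 (0.0896), mouse 2 (0.170) or mouse 4 (0.0891) or the esophagus array of mouse 1 (0.0576). The count of genes higher in stomach fell from 2 to 1 without the stomach array of any 1 mouse. It stayed 2 without the esophagus array of mouse 1. The repressor Cic, which binds PEA3 gene promoters, had a difference of 0.13 (limma adjusted p = 0.770) on its probe, and 2 of 3 probes of the PEA3 ubiquitin ligase gene Cop1 had differences of 0.53 and 0.56 and missed the threshold (0.0581 and 0.0514).

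**Figure D4:**
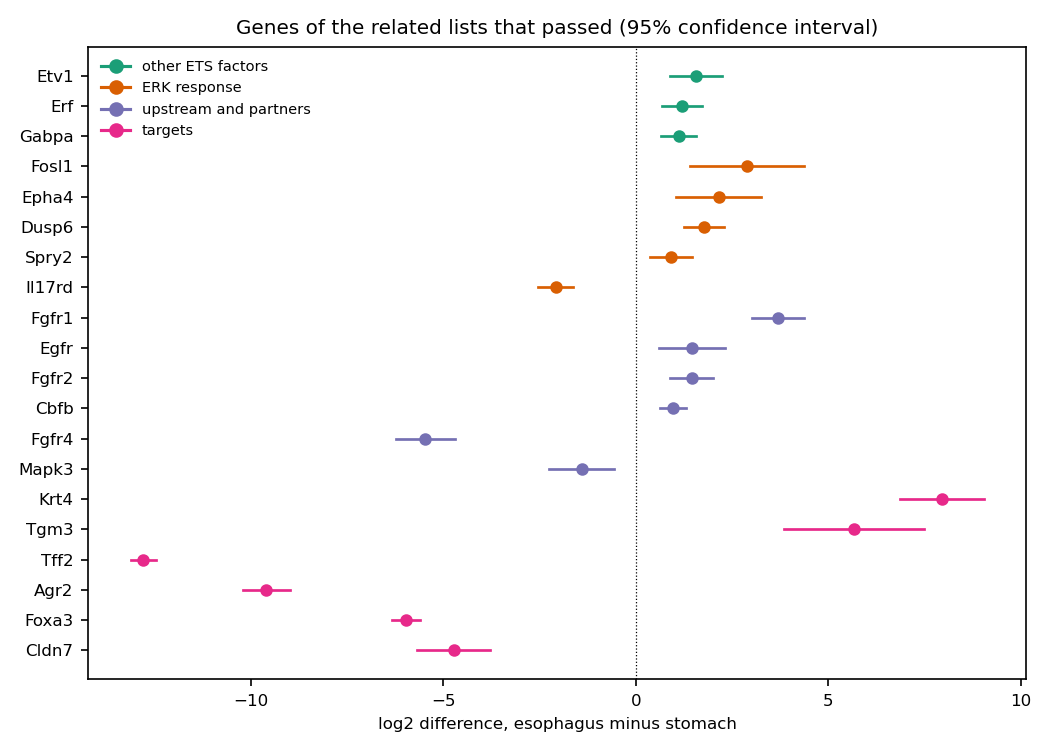
Log2 difference, esophagus minus stomach (x axis), with 95% confidence interval, for the named genes of the 4 related lists that passed limma's test, colored by list. Other ETS genes lie to the right of 0 (1.12 to 1.56), and the target genes spread from -12.80 for Tff2 to 7.96 for Krt4.

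Genes with ETS factors among their known regulators made a list of 11. In limma 2 were higher in esophagus, against 7.88% of all gene names, 7 were higher in stomach, against 8.33%, and 2 did not pass. Their median difference was -2.08. The list mixes squamous and mucous genes, and 3 of its genes, Krt4, Tgm3 and Muc6, are also tissue markers here, so its direction is not independent of tissue. Krt4, a keratin of suprabasal squamous cells, read 13.55, 14.67 and 12.73 in esophagus and 5.36, 5.52 and 6.20 in stomach, a difference of 7.96 (SE 0.47, limma adjusted p = 2.34e-05), with 2 of 3 stomach arrays well above background. On 1 probe, below background in stomach, the transglutaminase gene Tgm3 was 48.5-fold higher in esophagus against the background floor (limma adjusted p = 0.00250). Its esophagus arrays read 10.96, 12.02 and 8.43 on that probe. With 1 array left out the fitted log2 difference ranged from 4.90 to 6.70. The second Tgm3 probe, well above background on every array of both tissues, had means of 9.23 in esophagus and 9.32 in stomach. Its difference was -0.09 (limma adjusted p = 0.901), so the probes of Tgm3 disagreed.

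The named genes higher in stomach had the following values. The trefoil peptide gene Tff2 was below background in esophagus and, against the background floor, 6348-fold higher in stomach (limma adjusted p = 3.23e-08). Agr2, a protein disulfide isomerase of mucous cells, read 4.94, 5.61 and 5.78 in esophagus and 14.67, 15.19 and 15.29 in stomach, a difference of -9.60 (SE 0.27, limma adjusted p = 4.63e-07), with 2 of 3 esophagus arrays well above background. Foxa3, a forkhead factor of goblet and gland cells, was also below background in esophagus and 55.0-fold higher in stomach against that floor (limma adjusted p = 3.69e-07). The tight junction gene Cldn7 read 8.85, 7.32 and 7.21 in esophagus and 12.40, 12.45 and 12.73 in stomach, a difference of -4.73 (SE 0.41, limma adjusted p = 0.000204). Its second probe was below background on all 6 arrays, and with the probes averaged the difference was -2.53. On the first probe the esophagus values, like those of Elf3 and Spdef, were highest in mouse 1 and lowest in mouse 4, whereas Agr2 was lowest in mouse 1. Muc6, the TGF-beta receptor gene Tgfbr2 (-2.08, limma adjusted p = 0.00365) and the near-identical Sprr2a copies, cornified envelope genes with 2 of 4 probes called, were the remaining genes higher in stomach.

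The probes whose pattern over the 6 arrays came closest to a member were found by Euclidean distance of mean-centred log2 values among 25835 probes, as a description with no test. For Elf5 the nearest were the calmodulin-like gene Calml3 (distance 0.486, log2 difference 6.52) and 2 probes of Clip4 (distances 0.536 and 0.740). For Spdef, which had both the largest change toward stomach and the widest esophagus spread, the nearest were a probe for an unnamed genomic interval on chromosome 9 (0.979), Rasgef1b (1.01) and Pcsk6 (1.09). The points share the 6 arrays and their normalization.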

How the data were processed

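RNA of 6 organoid samples was measured on Agilent mouse gene expression arrays. Per the file headers, the authors took spot intensity from the scans with Feature Extraction 11.5.1.1, and the deposited intensity was not normalized between arrays. The authors' deposited log2 values, used as the main values, were background corrected and quantile normalized. Normexp with an offset of 15 on median intensities and quantile normalization gave values within 0.0726 of them. The offset and any p-value adjustment were not given in the sources used here.

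Spots of a probe were averaged. The tissues were compared with limma 3.58.1 (lmFit, eBayes) in R 4.3.3, using the 6 arrays and no block, with Benjamini-Hochberg adjustment across the 55681 probes, and the fit was tested on simulated data. With 3 against 3 arrays an exact permutation test cannot go below 0.1, so none was used, and the number of arrays limits the precision. For a probe below background throughout a tissue, the fold given is a difference of means. Values under the lowest signal well above background on an array, the background floor, were raised to it. Such a fold makes no allowance for spread or for the background correction, so it is not a lower limit. Labels pair the arrays by mouse: deviations from the tissue means correlated within a mouse with r = 0.042, 0.023 and -0.002 across probes, against -0.091 to 0.040 between mice.

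Alternatives changed the background correction and offset, the scaling, the filter on dim probes, the block, the variance model, the averaging of probes and the threshold, and left out each array in turn. Gene names and probe coordinates (mm9) are those of the files. Neighbouring genes and promoters are from RefSeq (GRCm38.p6). The text names all members and, of each related list, the genes called on a probe bright on every array of a tissue, at most 4 in each direction. Cic, Cop1, Muc6, Tgfbr2, the Sprr2a genes and the second probes of named genes were added after their values were seen. The members and lists were chosen with earlier results of these data known.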

Additional observations from a re-analysis of the deposited data

How the results depend on the processing

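Elf5 and both Ets1 probes passed under every setting that was run, and the counts of target genes (2 and 7) and of other ETS genes higher in stomach (0) did not change. Signal over background limits the sizes of Elf5 and Ets1, whose stomach values were at or near background. With 75th percentile scaling the median of all probes was at 0.19 rather than 0.02. For the results that moved, the cause was not tested, except that the dim-probe filter adjusts over fewer probes and each left-out array leaves fewer samples. With the mouse as a replicate block the Etv4 differences stayed 0.63 (adjusted p = 0.0574) and 0.62 (0.0606) and lost their calls, Epha4 lost its call, and no other member call changed. The slide block leaves the esophagus array of mouse 4 out of the contrast.

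ETS genes higher in stomach, 1 in the main setting, were 0 on quantile-normalized software background-subtracted values, 2 with the dim-probe filter and 2 at the methods' thresholds, and the probe counts were the same. ERK response genes higher in esophagus, 4 in the main setting, were 2 with an offset of 50, 1 on software values with quantile normalization and 7 with the slide as a block. Upstream and partner genes higher in stomach were 1 in place of 2 with an offset of 50, with 75th percentile scaling, on software values with quantile normalization and with probes averaged. Ehf (brighter probe) did not pass at 1.03 with an offset of 50 or at 1.10 on software values with quantile normalization, and Spdef did not pass on the latter at -4.42. At the methods' thresholds the other Ehf probe (0.77) and Elf3 (-2.03) passed, and Elf3 also passed with the dim-probe filter at -2.03. Ets2 passed with the slide block at 1.25. The Etv4 probes did not pass with 75th percentile scaling (0.78 and 0.94), with the slide block (0.57 and 0.62) or with trend and robust variances (0.63 and 0.62). Signs turned, without a call, for Etv5 with 75th percentile scaling (0.27) and for the dim Etv6 probe with 75th percentile scaling (0.20) and software quantile values (0.14).

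With 1 array left out, ETS genes higher in esophagus numbered 2 to 4 and probes 3 to 5, and genes and probes higher in stomach 1 to 2. ERK response genes higher in esophagus numbered 1 to 7, and upstream and partner genes higher in stomach 1 to 2. The log2 difference ranged from 0.91 to 1.29 for Ehf (brighter probe), 0.40 to 0.74 for Elf1 (brighter probe), -2.77 to -1.50 for Elf3, 0.46 to 1.25 for Ets2, 0.55 to 0.70 and 0.56 to 0.67 for Etv4, -0.28 to 0.15 for Etv5 and -0.082 to 0.092 for the dim Etv6 probe. The brighter Etv6 probe, which passed nowhere, ranged from 0.0009 (without the esophagus array of mouse 4) to 0.34 (without the stomach array of mouse 4). Of the probes of other genes, 279 values over all settings stayed on their side of the threshold, 35 lost it and none changed sign. These counts cover the 20 probes of the related lists chosen by rule, and the probes added later were not run under the alternatives.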
